A study of Homo sapiens with 2 samples.

Results

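Peaks of chromatin immunoprecipitation with an antibody against CREB were examined at CAMKV and 6 other genes of calcium/calmodulin signalling in NGP cells, a long-established line of human neuroblastoma, a childhood tumour of the sympathetic nervous system. In all there was 1 library of CREB ChIP and 1 of input, which is DNA taken without immunoprecipitation. Both came from cells that no label describes as treated or altered, grown in medium with serum and harvested near confluency. Neither library has a replicate, so the spread between cultures is unknown and no test between conditions was possible. Per the series' design text, the study looked for genes downstream of CAMKV through CREB. The 7 genes were CAMKV, CAMK1, CAMK1D, CAMK1G, CAMK2G, CAMK2N2 and PPP3CA. They were chosen by their peaks. The authors' deposited table pairs 6 of them with a peak within 50 kb of the transcription start site (TSS), and CAMK1D was added because a strong peak lies inside the gene, beyond that distance. Together they carried 9 of the 5285 peaks in the list, and 6 of them were among the table's 2495 gene symbols. The presence of these peaks is therefore a description of how the genes were chosen.

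Calcium that enters a cell binds calmodulin, and calcium-bound calmodulin switches on a family of protein kinases. The CaM kinase I and IV enzymes are themselves activated by CaM kinase kinases, whereas CaM kinase II forms a large ring-shaped assembly that can keep itself active after the calcium signal ends. Several of these kinases phosphorylate CREB, a transcription factor that binds the cAMP response element at promoters and then recruits the coactivators CREBBP and EP300. The phosphatase calcineurin is also switched on by calcium-bound calmodulin and acts on NFAT transcription factors. CAMKV resembles the CaM kinases but is described as a pseudokinase, without catalytic activity, and is best known from neurons and their synapses.

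RefSeq promoter sequences (GRCh38.p14, the same build as the files) were found for 6 of the 7 genes, as windows of 300 bases from 250 before the start to 50 after it. PPP3CA was not matched. A summit lay within 10 kb of the start at 3 of the 7 genes, against 2.73% of protein-coding genes, a share that the choice of genes by their peaks raises. The windows of these 3 are shown because their summits lay closest to a start, although no peak reached into the windows. Capitals mark TGACG or its reverse complement CGTCA, the short form of the cAMP response element.
CAMKV promoter, minus strand, chr3:49869857-49870156: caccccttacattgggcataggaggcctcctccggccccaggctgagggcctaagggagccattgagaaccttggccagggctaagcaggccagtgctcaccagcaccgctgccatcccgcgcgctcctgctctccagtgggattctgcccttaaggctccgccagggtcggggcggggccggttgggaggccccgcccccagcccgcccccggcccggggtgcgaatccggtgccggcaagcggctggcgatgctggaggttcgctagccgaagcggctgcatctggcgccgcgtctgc
CAMK2N2 promoter, minus strand, chr3:184261504-184261803: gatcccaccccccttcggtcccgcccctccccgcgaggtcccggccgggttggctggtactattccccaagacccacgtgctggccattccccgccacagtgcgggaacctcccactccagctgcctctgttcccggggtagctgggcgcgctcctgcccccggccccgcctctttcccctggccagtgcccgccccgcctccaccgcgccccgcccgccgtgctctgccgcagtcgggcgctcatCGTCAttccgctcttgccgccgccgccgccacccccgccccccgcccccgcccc
CAMK1 promoter, minus strand, chr3:9769898-9770197: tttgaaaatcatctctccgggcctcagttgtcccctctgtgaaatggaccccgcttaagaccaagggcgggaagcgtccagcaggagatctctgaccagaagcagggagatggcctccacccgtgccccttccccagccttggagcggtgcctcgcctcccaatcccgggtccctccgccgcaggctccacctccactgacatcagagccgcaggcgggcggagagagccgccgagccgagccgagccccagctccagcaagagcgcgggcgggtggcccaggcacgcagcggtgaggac

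None of the 6 windows held the full element TGACGTCA, which 1.85% of 35116 RefSeq promoter windows held. The short form, searched on both strands and also counted inside any full element, was present in 1 of the 6, against 24.6% of all windows. The CAMK2N2 window held it once, as CGTCA beginning at position -4, where the first transcribed base is 1. No base of the CAMKV and CAMK1 windows is in capitals, so these letters do not occur there. GC content was 71.0% in the CAMKV window, 76.3% in CAMK2N2 and 67.3% in CAMK1, against a median of 58.7% over all windows. In the windows not shown it was 83% for CAMK2G, 52% for CAMK1D and 49.7% for CAMK1G, the last 2 below that median. No peak of the 7 genes overlapped any RefSeq promoter window. The share of all peaks that overlap one was not counted, so nothing is read from this absence. The CAMK2N2 peak came closest, 84 bp from its window, and the nearest CAMKV peak ended 7466 bp from its own. Sequence under the peaks themselves was not analysed here.

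The CAMKV gene (gene ID 79012) spans positions 49857989 to 49869906 of chromosome 3, is read from the minus strand and starts at 49869906. It carried 3 peaks, and 2 of them were among the strongest of the list. The peak at 49860462 to 49861585 had a fold enrichment of 90.7, ranked 6 of 5285, and rested on 112 fragments at its summit (95% exact Poisson interval 92.2 to 135). The peak at 49862037 to 49862390 ranked 7, its fold being 79.0, and rested on 103 fragments (84.1 to 125). Fold is the authors' ratio of ChIP signal to expected background at the summit. The number of fragments was recovered from the fold and the p-value, and the intervals cover counting error only. These intervals overlap, so the 2 strong CAMKV peaks are not resolved in height.

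The weak CAMKV peak, at 49859354 to 49859565, ranked 1843. Its 6 fragments (2.20 to 13.1) gave a fold of 5.62. Its fold and fragment number were shared by 352 peaks of the list. The strongest CAMKV peak exceeded it 16.1-fold in fold enrichment and the second 14.1-fold. Backgrounds expected by the peak caller were alike at the 3 peaks, at 0.246 fragments for the strongest and the weak peak and 0.316 for the second. The difference in fold thus came with a difference in ChIP fragments, not in background.

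**Figure D1:**
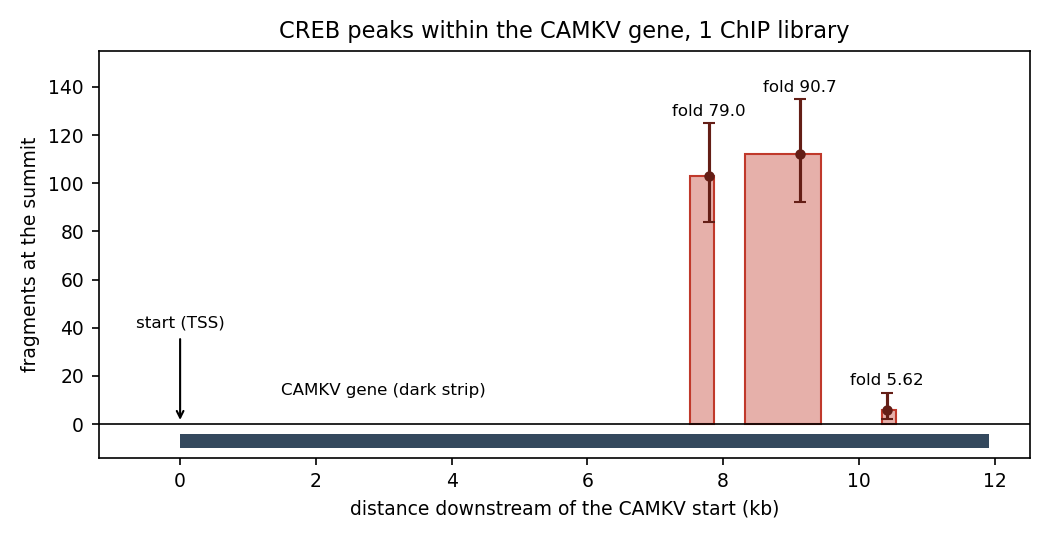
Positions of the CREB peaks along the CAMKV gene in 1 ChIP library. The x axis is distance downstream of the start in kb, the height of each bar is the number of fragments at the summit, its width is the extent of the peak, and points with error bars mark the summit with its 95% Poisson interval. The 3 peaks lie between 7.8 and 10.4 kb from the start, with 103, 112 and 6 fragments, and the stretch from the start to the first peak, 7516 bp, holds none.

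All 3 CAMKV peaks lay in the part of the gene far from its start. Their summits were 7.80, 9.13 and 10.4 kb downstream of the TSS, which is 65.4%, 76.6% and 87.4% of the way through the gene. They fell within 3037 bp, with 451 bp between the edges of the 2 strong peaks and 896 bp between the strongest and the weak one. Summits were spaced 1335 and 1282 bp apart. Together the peaks covered 14.2% of the gene. No other peak lay within 1 Mb on either side, the next being 1034 kb and 1376 kb away. Whether the peaks lie on exons or introns was not analysed here.

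The strongest CAMKV peak was also wide, at 1124 bp, which placed it 65th by width, whereas the other strong one measured 354 bp and the weak one 212 bp. The median width over the list was 236 bp. Among the 19974 protein-coding genes of chromosomes 1 to 22 and X, CAMKV was the 1 gene overlapped by 2 or more peaks with a fold of 10 or more. As many as 3 peaks or more, of any fold, overlapped 13 of these genes. CAMKV, at 11.9 kb, was the shortest of them, and its highest fold was followed by 12.1 at DUX4, a gene of a repeated array, and 10.4 at COL23A1, a collagen gene. The deposited peak names carry CAMKV beside CREB, and no label states a construct. Whether the CAMKV fragments come from the gene in its place on chromosome 3 was not tested.

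The start nearest to each CAMKV summit was not that of CAMKV. It belonged to TRAIP, a ubiquitin ligase of the replication stress response, whose start lay 4.21 kb from the strongest, 5.55 kb from the second and 2.93 kb from the weak summit. All were upstream of TRAIP. The authors' deposited table also paired each of these peaks with MST1R, a receptor tyrosine kinase gene, 41.8 to 44.4 kb away, and with UBA7, the activating enzyme for the ubiquitin-like protein ISG15, 45.5 to 48.2 kb away. Distance alone thus does not assign the CAMKV peaks to 1 gene.

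CAMK1D encodes CaM kinase I delta and spans positions 12349547 to 12835545 of chromosome 10 on the plus strand, a length of 486 kb. A single peak at 12760938 to 12761133 had a fold of 132, the 4th highest of the list. It rested on 164 fragments (140 to 191) over a background of 0.246. This interval lies above those of both strong CAMKV peaks. The summit was 372 kb downstream of the start that the RefSeq promoter table gives for CAMK1D, at 12388982, and 74.5 kb from the other end of the gene. That start lies inside the gene span, whose first base is 412 kb from the summit. The next peaks on the chromosome were 861 kb and 2077 kb away.

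The CAMK1D peak was narrow for its height. It measured 196 bp, less than the median of the list, while peaks with a fold of 10 or more had a median width of 386.5 bp and only 24 of those 216 were no wider. Because the CAMK1D start is beyond 50 kb, the authors' deposited table does not name this gene. The sole symbol it pairs with the peak is MIR548Q, a microRNA gene that lies within the CAMK1D span at positions 12725254 to 12725353, its start 35.7 kb from the summit. The mature microRNA is shown with its seed, bases 2 to 8, in capitals, because it is the table's only assignment for the 4th strongest peak.
hsa-miR-548q: gCUGGUGCaaaaguaauggcgg
No expression was measured for it or for CAMK1D.

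**Figure D2:**
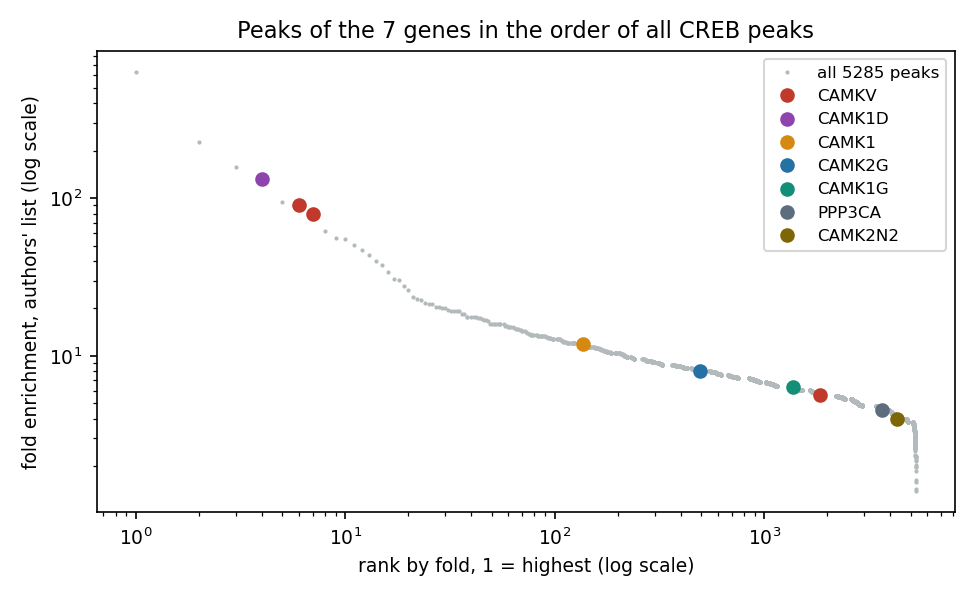
Fold enrichment of all 5285 CREB peaks (grey) by rank, both axes on log scales, with the 9 peaks of the 7 genes in colour. CAMK1D and the 2 strong CAMKV peaks sit at ranks 4, 6 and 7, and the others between rank 137 (CAMK1) and rank 4305 (CAMK2N2).

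The peaks next to these in the order of fold were of other kinds. Directly above CAMK1D stood RNU6-1, which encodes the U6 RNA of the spliceosome, with a fold of 159. Between CAMK1D and CAMKV stood a peak near the end of chromosome 5 with a fold of 94.8, and below CAMKV one near the end of chromosome 12 with a fold of 62.1. Neither of these overlapped an annotated gene. Only 0.208% of peaks (11 of 5285) had a fold of 50 or more, and 3 of those 11 belonged to CAMK1D and CAMKV. The other genes overlapped by the 11 were EEF1A1 of translation elongation (fold 634, rank 1), the immunoglobulin gene IGKC (226, rank 2), RNU6-1 and the globin gene HBB (56.2, rank 9). PGK1, a glycolytic enzyme gene, followed just below them at 47.1 and rank 12. Backgrounds at these 5 were 0.246 to 0.316 fragments, as at CAMK1D and CAMKV. Whether the fragments at CAMK1D or at these 5 genes come from those genes in their chromosomal places was not tested.

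The other CaM kinase genes had lower peaks. CAMK1, the gene of CaM kinase I alpha on chromosome 3 (9757347 to 9769947, minus strand), had a peak at 9762949 to 9763227 with a fold of 11.9 and rank 137. It rested on 15 fragments (8.40 to 24.7) over a background of 0.346, and its summit lay 6.87 kb inside the gene. That position is also inside the span of OGG1, a DNA glycosylase that removes oxidised guanine, whose start was 13.1 kb away. The table paired the peak with 7 symbols, among them BRPF1 and TADA3 of histone acetyltransferase complexes and ARPC4 of the actin-nucleating Arp2/3 complex. CAMK1 was the nearest start.

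CAMK2G encodes the gamma subunit of CaM kinase II, on chromosome 10 (73812501 to 73874555, minus strand). Its peak at 73849183 to 73849424 had a fold of 8.03, 9 fragments (4.12 to 17.1) and rank 496, with the summit 25.2 kb inside the gene. CAMK1G, the gene of CaM kinase I gamma on chromosome 1 (209583714 to 209613939, plus strand), had a peak at 209605540 to 209605757 with a fold of 6.31, 7 fragments (2.81 to 14.4) and rank 1374. Its summit was 21969 bp inside the gene, farther than the 17827 bp to the microRNA gene MIR4260. Both kinase genes also shared their peak with more distant starts, NDST2 of heparan sulphate synthesis for CAMK2G and LAMB3, a laminin chain, for CAMK1G.

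CAMK2N2 encodes an inhibitor of CaM kinase II and was the 1 gene of the 7 with a summit within 1 kb of its TSS, a distance met by 1.33% of protein-coding genes. Its peak on chromosome 3 (184261888 to 184262063) had a fold of 4.01, ranked 4305, and lay 424 bp upstream of the start at 184261553, in the span of the readthrough gene EEF1AKMT4-ECE2. It rested on 4 fragments (1.09 to 10.2), the fewest of any peak in the list, with a −log10 q of 1.77 against a lowest value of 1.32. Another 7 symbols were paired with it, and 408 peaks of the list had the same fold and fragments. Its fold was the lowest of the 9 peaks, though its fragment interval overlaps those of the next ones.

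PPP3CA, the gene of the catalytic subunit alpha of calcineurin on chromosome 4 (101023418 to 101347526, minus strand), had a peak at 101307174 to 101307349 with a fold of 4.56, 5 fragments (1.62 to 11.7) and rank 3655. The summit lay 40.2 kb inside the gene, nearer to the microRNA gene MIR1255A at 23.1 kb. It was the farthest from its start among the 6 genes that met the 50 kb limit. Just outside that limit, by the RefSeq starts of the wider list described below, were PPP3R2 at 61.2 kb and NFATC3 at 62.1 kb.

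**Figure D3:**
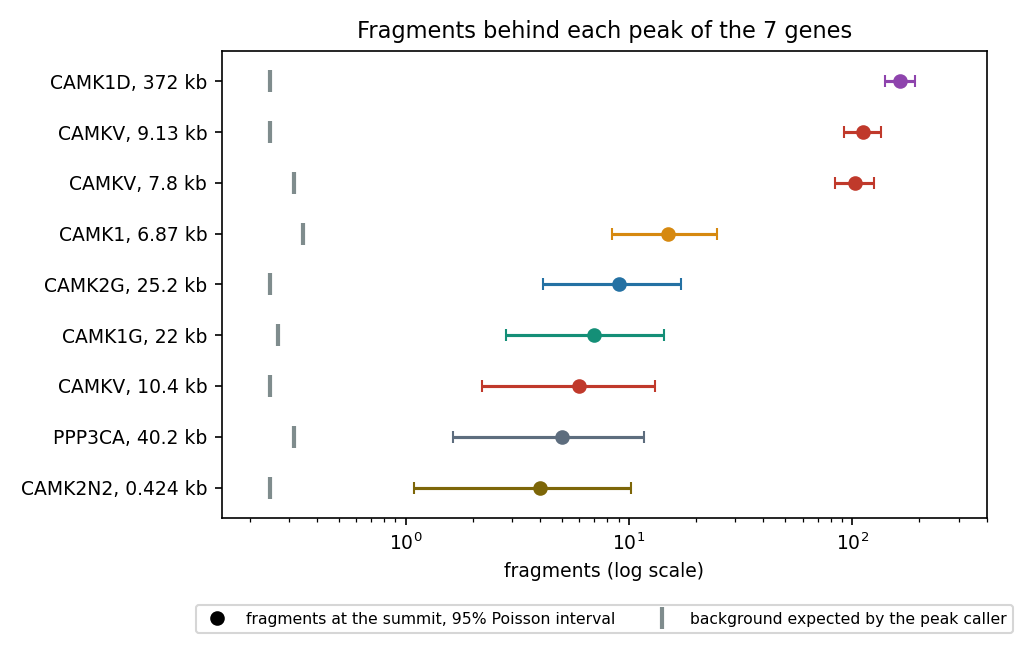
Fragments at the summit of each peak of the 7 genes (points, with 95% Poisson intervals) and the background expected by the peak caller (grey ticks), on a log axis. Labels give the gene and the distance of the summit from its start. The 3 uppermost intervals lie between 84.1 and 191 fragments, and the 6 others lie at or below 24.7.

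In order of fragments the peaks fell into separate ranges. CAMK1D stood above the strong CAMKV pair, and all 3 stood above CAMK1. The intervals of CAMK1, CAMK2G, CAMK1G, the weak CAMKV peak, PPP3CA and CAMK2N2 each overlapped those of their neighbours, so the order among 15, 9, 7, 6, 5 and 4 fragments is not resolved at this depth. Each lower bound was above the expected background, as the choice of called peaks requires. The list's median was 6 fragments (quartiles 5 to 9), and 5 of the 9 peaks here had 9 or fewer, as did 79.1% of all peaks. At the commonest background each fragment adds 0.803 to the fold, so 1 fragment separates several of these ranks.

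Of the 9 peaks, 4 had a fold of 10 or more, against 4.09% of all peaks, and 6 had a −log10 q of 5 or more, against 30.3%. These shares follow in part from choosing CAMKV and CAMK1D for their peaks, and nothing is read from them. Background was 0.246 at 5 of the 9, the commonest value of the list, found at 31.4% of peaks, and the highest was 0.346 at CAMK1. None lay in a 1 Mb window holding 10 or more peaks, where 64.0% of the list lay. In 8 of the 9 the summit was inside the gene and downstream of its start, CAMK2N2 being the exception. Among 1808 peaks outside such windows, which are not all that the list holds there, 43.1% lay in a protein-coding gene. That share counts any gene, whereas the 8 were counted in the gene itself. The rule for CAMKV and CAMK1D took peaks that overlap the gene, so the 4 peaks of these genes were inside it by choice. Nothing is read from the count of 8.

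**Figure D4:**
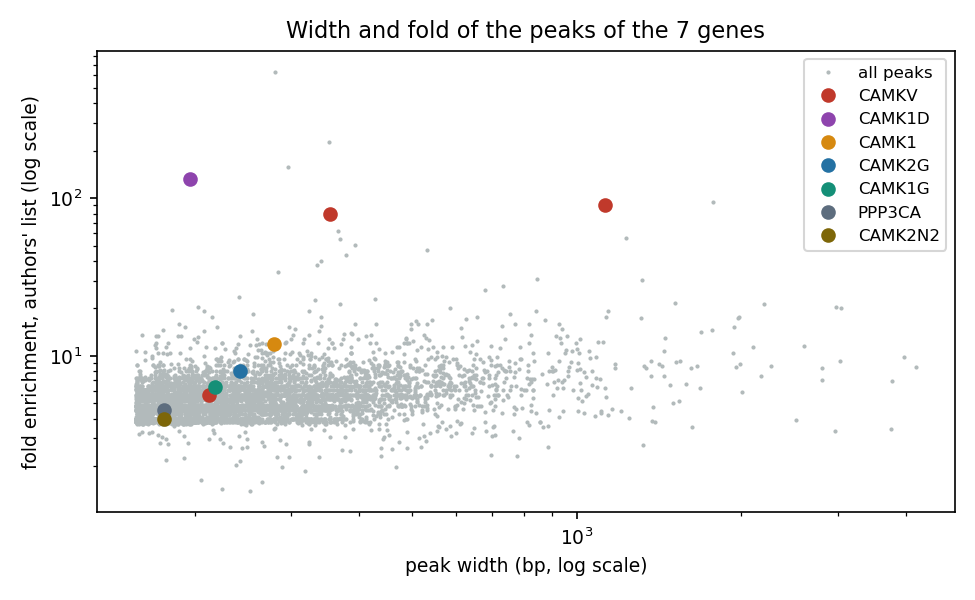
Peak width (bp) against fold enrichment for all peaks (grey) and the peaks of the 7 genes (coloured), both on log scales. CAMK1D combines a width of 196 bp with a fold of 132, the strongest CAMKV peak a width of 1124 bp with a fold of 90.7, and the weak peaks of the group lie in the main cloud.

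Distances from the start were also set beside those of other paired genes. For the 6 genes in the authors' table the nearest summit was a median of 14.9 kb from the start, against 20.0 kb (quartiles 6.24 to 34.8) over the 1692 protein-coding genes that the table pairs with a peak. The gene was the nearest start of a peak of its own for CAMK1, CAMK2G and CAMK2N2, 3 of these 6, against 43.9% of those 1692 genes.

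A wider list of 52 genes of calcium/calmodulin signalling, the 7 included, gave the surroundings of the group. Of the 52, the authors' table paired 8 with a peak within 50 kb, against 8.47% of protein-coding genes. Of the 45 genes that were not chosen for a peak, 2 were paired. The other 6 of the 8 were chosen because this table pairs them. That choice raises the first count and lowers the second, so nothing is read from either. PPP3CC, a further catalytic subunit of calcineurin on chromosome 8, had a summit 44.4 kb upstream of its start with a fold of 10.4 and 12 fragments (6.20 to 21.0). NFATC1, a transcription factor that calcineurin activates, had 2 summits upstream, at 37.2 kb with a fold of 4.82 and 5 fragments (1.62 to 11.7) and at 38.2 kb with a fold of 6.08 and 7 fragments (2.81 to 14.4). Of the 38 among the 45 whose start was known, none had a summit within 1 kb of it. That distance was met by only 1.33% of all protein-coding genes, so nothing is read from this either.

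A peak overlapped the span of 6 of the 52 genes, against 4.18% of all protein-coding genes. All 6 were among the 7 genes chosen by their peaks, and the absence of an overlap at the other 45 follows largely from that choice, so nothing is read from either count. The share differed with gene length, as 11.5% of genes of 100 kb or longer were overlapped, against 2.71% of shorter ones, and 15 of the 45 were that long. The 45 had a median length of 73.7 kb, against 24.2 kb over all protein-coding genes. Of the 11 genes of the kinase families, 4 were overlapped, namely CAMK1, CAMK1D, CAMK1G and CAMK2G. PNCK, CAMK2A, CAMK2B, CAMK2D, CAMK4, CAMKK1 and CAMKK2 were the others, and among them CAMK2A came nearest to one, with a summit 120 kb from its start. CASK, a scaffold protein with a CaM kinase-like domain, had no overlapping peak, nor had CAMK2N1, the other inhibitor of CaM kinase II.

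CREB itself and its coactivators form the last group of that list. CREB1, CREM, ATF1, CRTC1, CRTC2, CRTC3, CREBBP and EP300 had no peak paired with them in the authors' table. The table pairs 8.47% of all protein-coding genes, so nothing is read from its silence on these 8 genes. Of their RefSeq starts, 1 start of CREM, a cAMP-responsive repressor and activator gene, lay 46.4 kb from a summit. The table gives 1 start per symbol and does not list CREM. For CREB1 the nearest summit was 4975 kb away. The 43 list genes found in the RefSeq promoter table had 75 windows, and 3 of these held the full cAMP response element, against 1.85% of all windows. They belonged to 2 of the 43 genes, CREM with more than 1 window and RCAN1, an inhibitor of calcineurin. Windows of the same gene were counted separately, so nothing is read from the share.

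**Figure D5:**
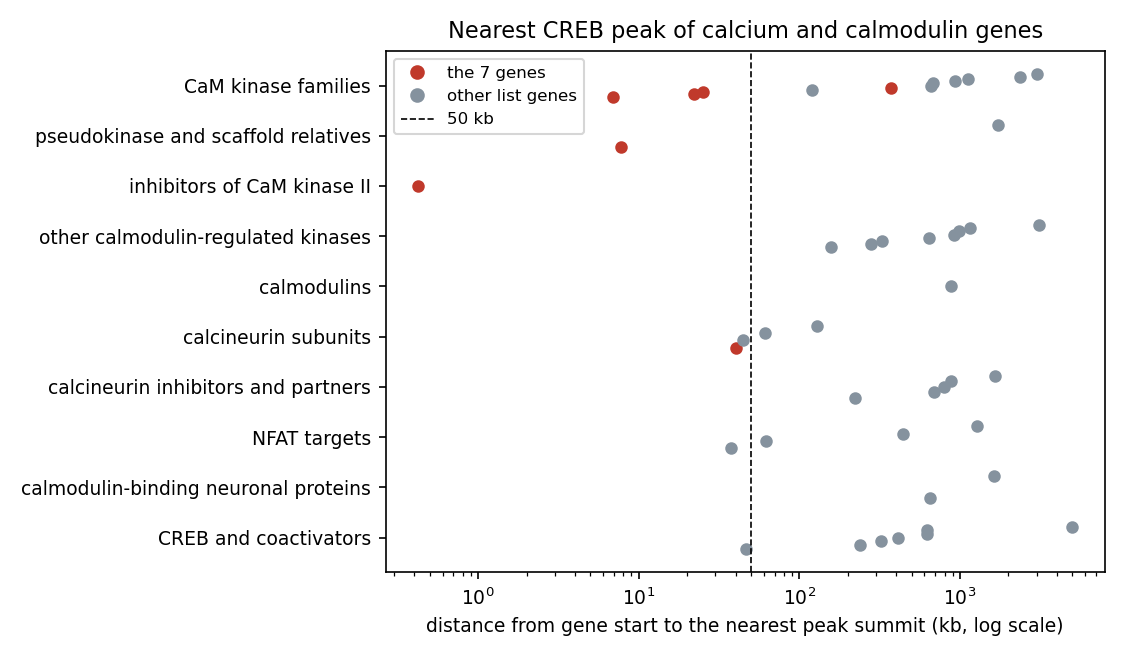
Distance from gene start to the nearest CREB peak summit (kb, log scale) for the 45 of 52 listed genes with a known start, by role. Red points are the 7 genes described here, grey points the others, and the dashed line marks 50 kb. All of the 7 but CAMK1D lie left of the line, with PPP3CC, NFATC1 and 1 CREM start.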

How the data were processed

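The submitters' processing notes name Bowtie2, MACS2 and build hg38, with versions and settings not given in the sources used here. Per the narrowPeak layout of the deposited list, every peak carries a score, a fold (a ratio), a −log10 p and a −log10 q-value of its summit. The authors' deposited table pairs refGene starts with peaks within 50 kb. Read totals and the input library's own signal were not analysed here.

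Fragments (Python 3.11.15, scipy 1.17.1) were the whole number giving both the fold, as (fragments + 1) / (background + 1), and the Poisson p, within 0.001, or a relative 1e-05 above a −log10 p of 100. All 5285 peaks had a solution, and for the 9 reported it was unique. The step was checked on simulated data. Starts came from the authors' table, otherwise from RefSeq, and any overlap of 1 bp counted.

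The 7 genes, the wider list and the alternatives were chosen with earlier results of these data known. Named genes were the 7, list genes with a peak, genes sharing or next to their peaks, and genes with 2 or more strong peaks. Genes with 3 or more peaks or just beyond 50 kb were picked after their values were seen.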

Additional observations from a re-analysis of the deposited data

How the results depend on the processing

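Of 13 alternative counts tried over the 5 counts of genes or peaks, 7 stayed within 1.5 times the value reported. The number of the 7 genes paired within 50 kb, 6, was 2 when only peaks with a fold of 10 or more were kept (CAMKV and CAMK1) and 3 within 10 kb (with CAMK2N2). The single peak within 1 kb of a start, that of CAMK2N2, was lost at a −log10 q of 5 or more, where the count was 0. The 8 paired genes of the wider list became 5 at a −log10 q of 5, 3 at a fold of 10 and 3 within 10 kb, each by construction fewer peaks or a shorter distance. Leaving out windows with 10 or more peaks kept the count at 8. Of all protein-coding genes, 2.46% were paired at a −log10 q of 5, 0.626% at a fold of 10 and 2.73% within 10 kb. The 7 genes were chosen by their peaks, so nothing is read from these counts. The CAMKV gene held 2 peaks at a −log10 q of 5 and 3 by summit. No paired analysis was possible because each group had 1 library. The intervals cover counting error only, since no molecular identifiers are recorded, and peaks of 4 to 9 fragments set the limit on what can be ordered.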

Other observations

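CACNA1C, which encodes the pore of an L-type voltage-gated calcium channel upstream of calmodulin signalling, was outside the wider list and was picked out after its values were seen. The gene spans 1970780 to 2697950 of chromosome 12 (727 kb) and carried 4 peaks, none in a dense window. The strongest, at 2255865 to 2256050, reached a fold of 8.83 and 19 fragments (95% exact Poisson interval 11.4 to 29.7). The next, at 2539226 to 2539491, reached 8.70 and 12 fragments (6.20 to 21.0). With more fragments for nearly the same fold, the strongest had the higher expected background. The others, at 2149049 to 2149302 and 2520321 to 2520571, each rested on 4 fragments (1.09 to 10.2), a fold of 3.80. Protein-coding genes with 3 or more overlapping peaks numbered 13 of 19974. DAB1, RBFOX1, PTPRN2 and CNTN4 among them were longer than CACNA1C.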
